A study of Mus musculus with 10 samples.

Results

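The regions described here are sites of estrogen receptor alpha (ERα) occupancy that ranked alike in 2 nuclei of the mouse hypothalamus. Overlapping peaks of 8 chromatin immunoprecipitation sequencing (ChIP-seq) libraries, 4 from the arcuate nucleus (Arcuate) and 4 from the anteroventral periventricular nucleus (AVPV), merged into 8072 regions. Of these, 1089 held a peak in all 8 libraries. In each library the highest fold enrichment in a region was turned into a percentile among those 1089 regions, from 0 for the weakest to 100 for the strongest. The 491 regions whose mean percentile differed by less than 10 between the nuclei were selected on these measured values and are called equal-rank regions. They are 45.1% of the 1089, and the share follows from the limit chosen. Of the other 598 regions, 293 ranked at least 10 higher in the Arcuate and 305 at least 10 higher in the AVPV.

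All libraries came from female C57BL/6 mice that had been ovariectomised and given a Silastic implant of 17β-estradiol (0.1 mg/mL). One week later each mouse received estradiol benzoate at 0.05 mg/kg, and tissue was taken 28 h after that injection. No group without estradiol entered, so the values describe occupancy under hormone only. Chromatin was pooled before precipitation and the sources do not say whether each library had a pool of its own, so spreads below are between libraries and not between animals. Peak lists hold no expression, and the dissected nuclei could not be checked against marker genes. Read depth is not known from the peak lists, which held 3251 to 4079 peaks for the Arcuate and 2367 to 3347 for the AVPV.

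ERα is a nuclear receptor that binds DNA as a dimer when estradiol occupies it. Its textbook site, the estrogen response element, is an inverted repeat of AGGTCA with 3 bases of any kind between the repeats. The receptor can also be found on chromatin where no such element lies, through other DNA-bound proteins or at active promoters. In the arcuate nucleus ERα cells take part in energy balance and bone mass, and in the AVPV they take part in the preovulatory surge of gonadotropins.

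Most equal-rank regions were of 2 kinds. Of the 491, 113 held a response element and had their summit outside promoters, and 277 had it at a promoter and held no element, which leaves 101. Those outside promoters come first. Shown are the 6 highest ranked regions with an element, which may have up to 2 mismatches in its 12 fixed bases and lies whole within 100 bp of the summit, followed by the next 2 with no mismatch. The plus strand of GRCm38 (mm10) is shown, with the element in capitals.
Rbm20 intron, chr19:53852715-53852835: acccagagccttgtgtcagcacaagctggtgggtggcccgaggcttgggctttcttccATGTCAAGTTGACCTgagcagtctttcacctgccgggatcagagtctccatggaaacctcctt
Rybp intergenic, nearest start, chr6:100059991-100060111: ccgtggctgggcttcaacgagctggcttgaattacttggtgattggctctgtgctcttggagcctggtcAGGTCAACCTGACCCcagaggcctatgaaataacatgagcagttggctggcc
Greb1 intron, chr12:16760458-16760578: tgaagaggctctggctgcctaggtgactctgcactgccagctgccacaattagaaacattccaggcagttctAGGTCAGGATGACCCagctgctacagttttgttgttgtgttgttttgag
4930572O13Rik intergenic, nearest start, chr14:25185677-25185797: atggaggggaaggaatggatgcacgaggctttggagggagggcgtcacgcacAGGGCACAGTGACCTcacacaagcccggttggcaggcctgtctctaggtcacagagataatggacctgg
Ccdc6 intron, chr10:70159719-70159839: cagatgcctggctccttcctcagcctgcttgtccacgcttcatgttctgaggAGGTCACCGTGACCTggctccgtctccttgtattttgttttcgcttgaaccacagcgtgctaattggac
Prkce intron, chr17:86264000-86264120: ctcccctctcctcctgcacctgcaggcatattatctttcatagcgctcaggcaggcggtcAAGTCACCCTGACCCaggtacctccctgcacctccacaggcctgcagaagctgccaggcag
Clvs2 intron, chr10:33558190-33558310: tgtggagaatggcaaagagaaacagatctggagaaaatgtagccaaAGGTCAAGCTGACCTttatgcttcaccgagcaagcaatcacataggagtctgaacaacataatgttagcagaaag
Dpp6 intron, chr5:27557133-27557253: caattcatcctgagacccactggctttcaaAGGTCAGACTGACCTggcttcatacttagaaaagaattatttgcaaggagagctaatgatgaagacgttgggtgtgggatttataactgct
The elements of Ccdc6, Clvs2 and Dpp6 had no mismatch. Those of Rbm20, Rybp, Greb1 and 4930572O13Rik had 1 mismatch, and that of Prkce had 2.

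The promoter regions without an element are shown by the 3 highest ranked that had at least 40 bases free of annotated exons, then by 4 further promoters that hold the word GATTCGCC on either strand, and 2 that hold CCGGAAG, the core that ETS factors recognise. Capitals mark the word or the core. At Ddx17 and Ddost the stretch was cut to bases outside annotated exons, and there it lies beside the summit.
Ddx17 promoter, chr15:79546742-79546796: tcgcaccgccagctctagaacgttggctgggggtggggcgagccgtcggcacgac
Rad51ap1 promoter, chr6:126939679-126939799: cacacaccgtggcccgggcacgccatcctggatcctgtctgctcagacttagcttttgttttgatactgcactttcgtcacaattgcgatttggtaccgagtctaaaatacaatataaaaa
Sfswap promoter, chr5:129501092-129501212: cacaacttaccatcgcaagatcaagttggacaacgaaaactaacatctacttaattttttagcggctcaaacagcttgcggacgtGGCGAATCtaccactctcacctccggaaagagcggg
Brpf1 promoter, chr6:113306956-113307076: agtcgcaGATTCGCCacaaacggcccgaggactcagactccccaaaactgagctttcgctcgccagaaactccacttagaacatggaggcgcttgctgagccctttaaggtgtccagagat
Fbxo8 promoter, chr8:56550973-56551093: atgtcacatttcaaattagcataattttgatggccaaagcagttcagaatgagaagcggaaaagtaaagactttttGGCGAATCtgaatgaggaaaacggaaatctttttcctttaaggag
Snrnp35 promoter, chr5:124483034-124483154: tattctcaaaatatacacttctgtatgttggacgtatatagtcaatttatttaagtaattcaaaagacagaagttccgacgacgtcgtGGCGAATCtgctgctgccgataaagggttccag
Gm4925 promoter, chr10:88731111-88731231: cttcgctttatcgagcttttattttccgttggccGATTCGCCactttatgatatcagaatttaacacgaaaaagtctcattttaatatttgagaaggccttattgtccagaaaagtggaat
Chordc1 promoter, chr9:18292146-18292266: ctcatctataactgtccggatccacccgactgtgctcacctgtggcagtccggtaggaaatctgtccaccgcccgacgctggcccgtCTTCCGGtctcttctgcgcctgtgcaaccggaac
Ddost promoter, chr4:138304660-138304737: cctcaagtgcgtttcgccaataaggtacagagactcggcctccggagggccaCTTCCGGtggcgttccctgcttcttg
The word stands on the plus strand in Brpf1 and Gm4925 and as its complement in Sfswap, Fbxo8 and Snrnp35.

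**Figure D1:**
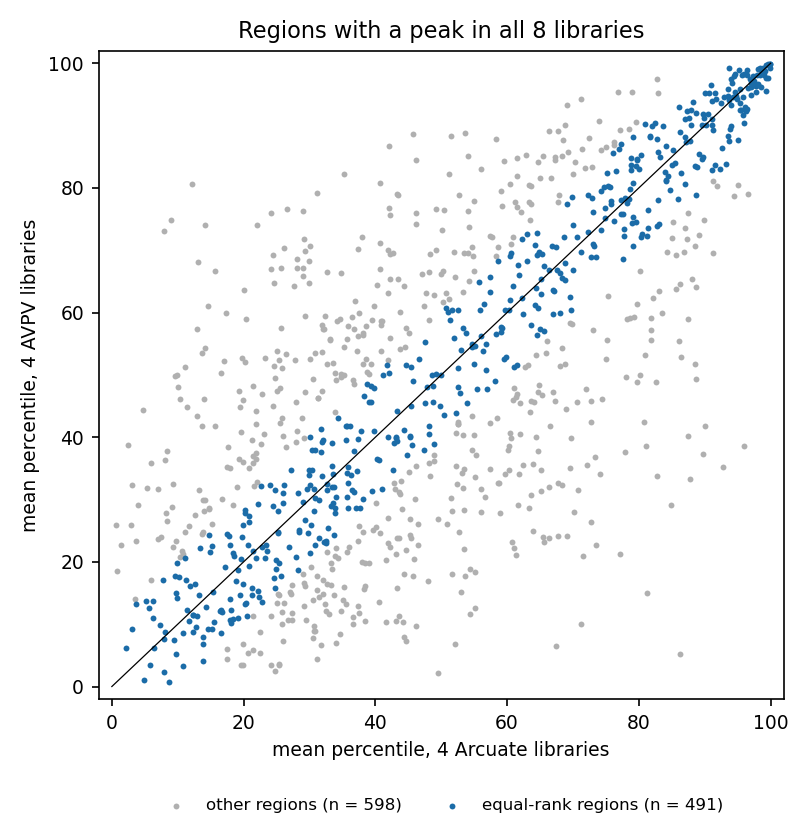
Each point is 1 of the 1089 regions with a peak in all 8 libraries, placed by its mean percentile in the 4 Arcuate libraries (x axis) and in the 4 AVPV libraries (y axis), each from 0 to 100. The 491 equal-rank regions (blue) form the band along the diagonal that the limit of 10 sets, and the band fills the upper right corner, where 83 of them and 1 other region had a mean percentile of 90 or more.

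By construction the equal-rank regions agreed between nuclei, and the agreement is given as a description. Spearman's rho of fold enrichment over the 491 regions was 0.83 to 0.91 in the 16 pairs of an Arcuate and an AVPV library. Within the Arcuate it was 0.77 to 0.90 in 6 pairs, and within the AVPV 0.86 to 0.90. The median difference between nuclei was 4.15 percentile points, and the median range of a region over the 8 libraries was 28.4 points. Equal mean rank therefore did not mean equal rank in every library. The 4 percentiles of one nucleus lay wholly above those of the other at 14 equal-rank regions with the Arcuate above (2.85%) and at 15 with the AVPV above (3.05%). Over all 1089 regions the shares were 10.7% and 11.3%, and the selection itself lowers the former pair.

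The limit cut through a continuous range. Just inside it were the promoter of Ndufaf1 (mean percentile 9.83 in the Arcuate and 19.8 in the AVPV), the promoter of Prkab1 (48.8 and 38.8) and an intron of Pcmtd1 (30.1 and 40.1). Just outside were an intergenic region nearest to 1700016G22Rik (53.3 and 63.4), the promoter of Gm39874 (67.7 and 77.8) and the 5′ end of Pim3 (42.8 and 32.7). Members near the limit differed little from regions that were left out.

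Strength varied widely among the equal-rank regions. Fold enrichment, the height of a peak over the local background estimated by the peak caller, had a median of 10.8 to 11.4 in the Arcuate libraries and 10.1 to 11.8 in the AVPV libraries. Single values ran from 2.96 to 91.1. The median equal-rank region stood at percentile 85.9 to 87.3 among all peaks of an Arcuate library and at 78.4 to 85.8 among those of an AVPV library. Mean percentiles over the 8 libraries had a median of 56.1 with quartiles of 29.1 and 82.7, against a median of 45.5 with quartiles of 30.1 and 58.9 in the other regions. Near 0 and 100 the means of the nuclei have less room to differ, so the excess of very strong and very weak regions is partly set by the rule.

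Of the 10 strongest equal-rank regions, 9 had their summit at a promoter. The highest mean percentile (99.9) was that of Ddx17, which encodes an RNA helicase also known as a coregulator of ERα (chr15:79546204-79547423, summit 45 bp past the start). Its fold enrichment was 69.5, 70.2, 60.3 and 79.4 in Arcuate libraries 1 to 4 and 65.2, 66.2, 73.9 and 60.2 in AVPV libraries 1 to 4. The nuclei overlapped there. Kmt5b, a histone H4 lysine methyltransferase gene, had its summit 154 bp past a start, in a 5′ untranslated exon (chr19:3767167-3768882). It gave 54.1, 72.1, 67.2 and 78.5 in the Arcuate and 58.8, 77.5, 91.1 and 73.2 in the AVPV, and the nuclei again overlapped.

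Rad51ap1, a gene of homologous recombination, gave 61.3, 52.3, 49.9 and 60.2 in the Arcuate and 59.1, 65.0, 69.2 and 61.3 in the AVPV (chr6:126939010-126940749). The values overlapped, with the AVPV higher on average. Slc39a10, which encodes a zinc transporter, gave 57.7, 57.3, 55.7 and 63.1 against 49.2, 54.3, 69.5 and 52.8 (chr1:46852552-46854300). Its percentile spanned 0.276 points over the 8 libraries, and that of Ddx17 0.184 points. Kmt5b and Rad51ap1 spanned 0.551 points each, and Gm4925 (chr10:88730300-88732204) and Brpf1 0.735 points each. These were the smallest spans.

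Equal rank by the limit of 10 did not always mean equal fold enrichment. At Sfswap, a regulator of splicing (chr5:129500255-129502259), the Arcuate libraries gave 63.9, 65.1, 65.5 and 76.1 and the AVPV libraries 51.5, 51.2, 44.5 and 49.5. All 4 Arcuate values lay above all 4 AVPV values, while the mean percentiles were 99.9 and 99.3. The percentiles separated too, since the lowest Arcuate percentile was 99.8 and the highest AVPV percentile 99.6. Sfswap was thus among the 14 equal-rank regions (2.85%) whose percentiles separated with the Arcuate above. Brpf1, a scaffold of histone acetyltransferase complexes, gave 43.4, 45.6, 49.3 and 59.7 in the Arcuate and 54.8, 63.3, 63.8 and 56.4 in the AVPV (chr6:113306342-113308221), with overlap. At the top of the ranking a large step in fold enrichment is a small step in percentile. No test was run on these values, since they chose the regions.

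The other promoters among the 10 highest ranked were those of Fbxo8, an F-box gene (fold enrichment 40.9 to 48.6 over the 8 libraries), Snrnp35, a protein of the minor spliceosome (35.6 to 52.6), Gm4925 (36.6 to 51.0) and Cmss1 (34.6 to 48.8). Of the 10, 0 held a response element. Starts of 2 or more genes lay within 1 kb of the summit at 3 of the 10.

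**Figure D2:**
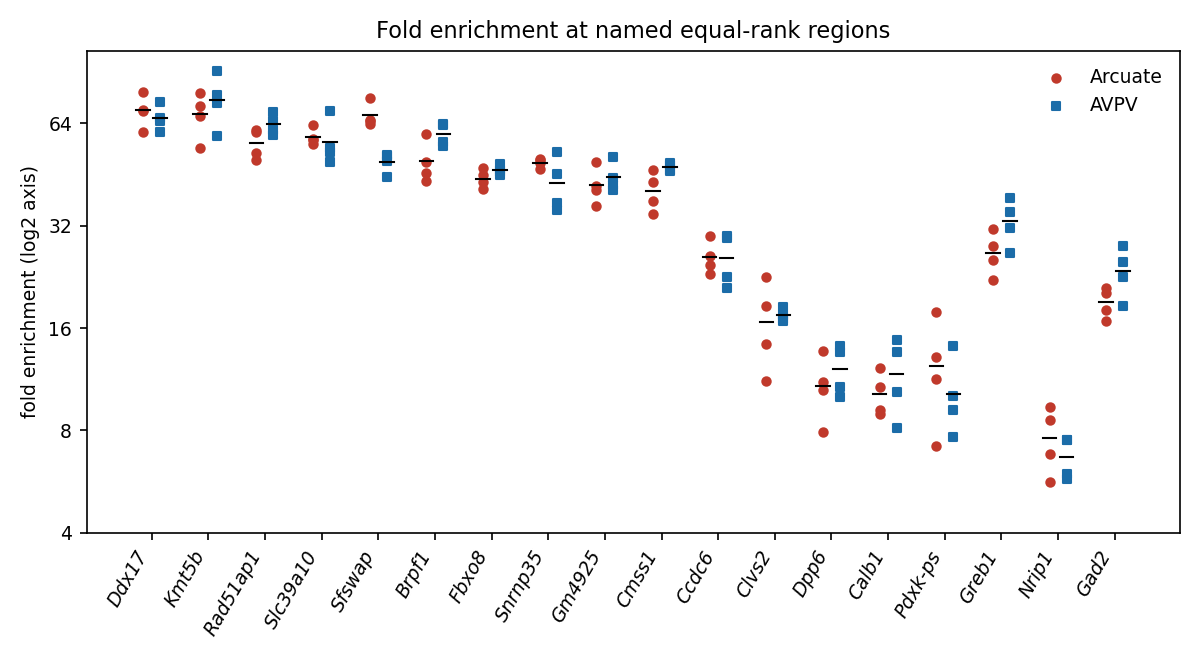
Fold enrichment (y axis, log2 scale) of 18 named equal-rank regions, with 1 point per library, circles for the 4 Arcuate and squares for the 4 AVPV libraries, and a line at each mean. The 10 highest ranked regions, from Ddx17 to Cmss1, lie above all of the regions chosen for a response element and above Nrip1 and Gad2, save that single libraries of Greb1 reach the lowest values of that group.

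Equal-rank regions lay at promoters more often than the regions that ranked higher in the Arcuate, while the difference from those that ranked higher in the AVPV was not detectable. A summit no more than 1 kb before or 100 bp past a RefSeq start was found at 286 of 491 (58.2%, 95% Wilson interval 53.8 to 62.5) and at 248 of 598 (41.5%, 37.6 to 45.5). The difference was 16.8 percentage points (95% Newcombe interval 10.8 to 22.6). Split by direction, the share was 30.4% of the 293 regions higher in the Arcuate, a difference of 27.9 points (20.8 to 34.4), and 52.1% of the 305 higher in the AVPV, a difference of 6.12 points (-0.967 to 13.2). Introns held 17.7% of the equal-rank and 27.1% of the other regions, a difference of -9.37 points (-14.2 to -4.40). Intergenic sequence held 16.9% and 24.6%, a difference of -7.68 points (-12.4 to -2.83). Untranslated exons (4.48%), other exons (1.83%) and transcript ends (0.815%) held the rest. Among all 8072 regions 26.4% lay at promoters. Intervals cover counting error over regions only, and neighbouring regions are not independent.

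The difference from the other regions had the same direction in each of 3 strength groups, though its interval reached below 0 in the weakest. In finer bins it did not, since at mean percentiles of 30 to 40 promoters made up 35.2% of the equal-rank regions (19 of 54) and 45.2% of the others (42 of 93). When the 1089 regions were divided into 3 equal groups by mean percentile, at 35.2 and 60.8, promoters made up 67.5% of the equal-rank and 47.4% of the other regions in the highest group, a difference of 20.1 points (9.64 to 30.2). In the middle group they made up 50.5% and 38.9%, a difference of 11.6 points (0.240 to 22.7). In the lowest group they made up 50% and 40.8%, and the difference of 9.20 points had an interval from -1.07 to 19.3. Base composition moved with this, since the 201-bp windows around the summits had a median GC content of 58.7% in the equal-rank and 54.7% in the other regions. The part of base composition in the difference was not tested.

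Response elements followed the same division. An element lay within 100 bp of the summit in 122 equal-rank regions (24.8%, 21.2 to 28.9) and in 241 other regions (40.3%, 36.4 to 44.3), a difference of -15.5 points (-20.8 to -9.89). They lay in 50.2% of the regions higher in the Arcuate, a difference of -25.3 points (-32.1 to -18.4), and in 30.8% of those higher in the AVPV, where the difference of -5.97 points had an interval from -12.5 to 0.371. Over all 8072 regions the share was 28.7%. The same windows moved by 5 kb held one in 0.611% and 1.84%, and the windows of RefSeq promoters in 0.989%. In the highest strength group the shares were 19.3% and 39.3%, a difference of -19.96 points (-29.6 to -10.3), and in the middle group 31.7% and 43.5%, a difference of -11.8 points (-22.1 to -0.576). In the lowest group they were 28.4% and 36.8%, and the interval of the difference of -8.42 points ran from -17.8 to 1.32. Among the 83 regions with a mean percentile of 90 or more, 10 held an element (12.05%, 6.68 to 20.8) and 60 lay at promoters (72.3%).

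Since the sets differed in their mix of promoters and other sites, elements were also counted within each. Within promoters an element was rare in both sets, at 9 of 286 equal-rank regions (3.15%) and 13 of 248 others (5.24%), a difference of -2.10 points (-5.91 to 1.38). Outside promoters it was present at 113 of 205 (55.1%) and 228 of 350 (65.1%), a difference of -10.02 points (-18.4 to -1.62). Against the regions higher in the AVPV alone these differences were 1.26 points (-2.55 to 4.25) and -7.21 points (-17.3 to 3.26). Over all strengths, elements with no mismatch did not differ detectably, with 20 of 491 (4.07%) against 25 of 598 (4.18%) and a difference of -0.107 points (-2.49 to 2.41). The strength groups differed in direction. In the highest group 2 of 228 against 7 of 135 held one, a difference of -4.31 points (-9.48 to -0.822). In the middle group the difference was 3.88 points (-0.665 to 10.7) and in the lowest 1.82 points (-3.11 to 7.26).

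**Figure D3:**
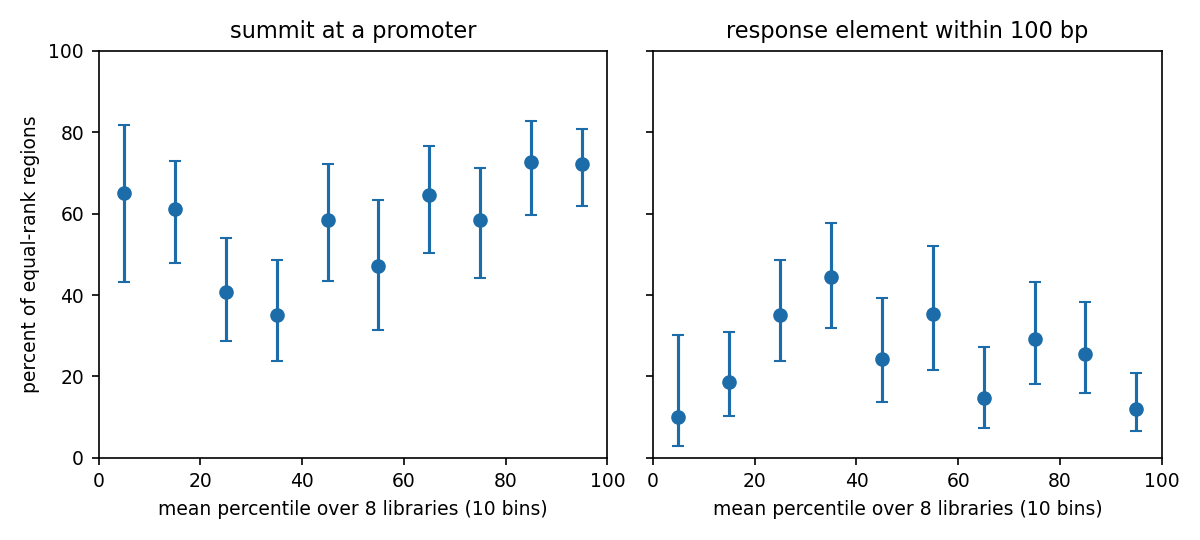
Percent of equal-rank regions whose summit lay at a promoter (left) and that held a response element within 100 bp of the summit (right), by mean percentile over the 8 libraries (x axis, in 10 bins of equal width). Points are shares with 95% Wilson intervals. The promoter share is 65% among the 20 weakest, lowest at percentiles of 30 to 40 (35.2%) and highest at 80 to 90 (72.7%), and the element share is highest at 30 to 40 (44.4%) and low at both ends (12.05% at 90 to 100 and 10% among the 20 weakest).

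Elements lay near the summit. The summit fell within the 15 bp of the element at 40 of the 122 equal-rank regions that held one (32.8%). The centre of the element lay a median of 12 bp from the summit of the region, and within 25 bp at 99 of the 122 (81.1%). In the other regions the median was 13 bp, with 184 of 241 (76.3%) within 25 bp. The 20 perfect elements of equal-rank regions lay a median of 7.5 bp and at most 42 bp from the summit. Of these 20 regions, 10 were intronic and 10 intergenic, and 0 lay at a promoter. Their mean percentiles ran from 11.96 to 93.9 with a median of 33.2, so an element without mismatch did not go with a high rank.

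The 5 highest ranked regions with a perfect element lay in an intron of Ccdc6 (chr10:70158997-70160413), an intron of Clvs2, which encodes a clathrin-associated lipid-binding protein (chr10:33557674-33558676), an intron of Dpp6, an auxiliary subunit of A-type potassium channels (chr5:27556750-27557567), 223 kb from the start of Calb1, which encodes the calcium buffer calbindin (chr4:15657535-15658129), and 18.2 kb from Pdxk-ps (chr17:32073060-32073710). At Ccdc6 fold enrichment was 29.8, 24.5, 26.1 and 23.1 in the Arcuate and 20.9, 22.5, 29.4 and 29.8 in the AVPV. At Dpp6 it was 10.5, 13.7, 11.1 and 7.94 against 10.7, 13.6, 10.01 and 14.2. The libraries of the nuclei overlapped at both.

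**Figure D4:**
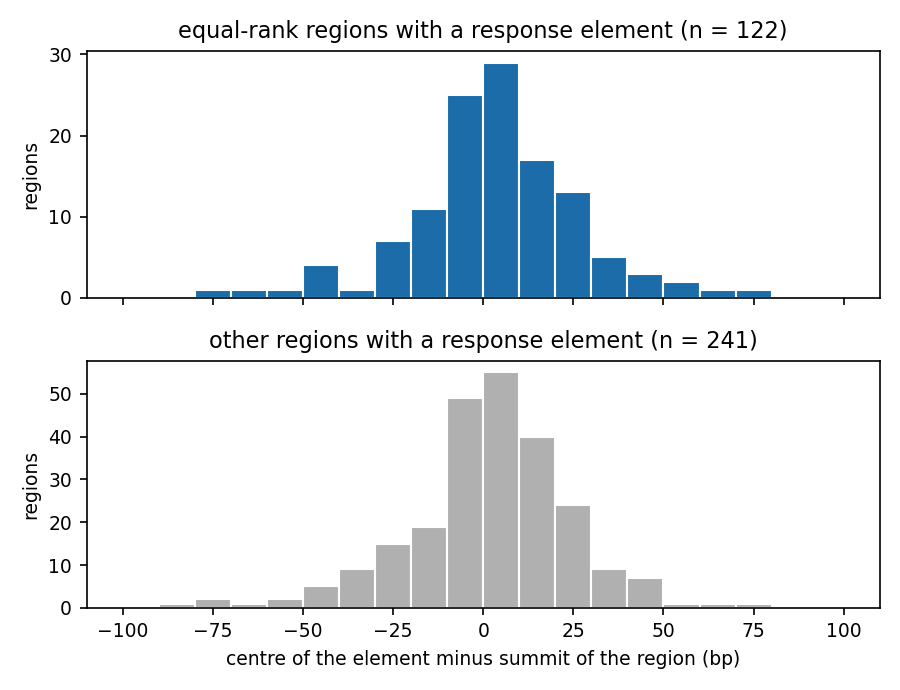
Distance from the summit of the region to the centre of its response element (x axis, bp, in bins of 10 bp) for the 122 equal-rank regions (top) and the 241 other regions (bottom) that held one, as numbers of regions (y axis). Both distributions peak at the summit, with 99 of 122 and 184 of 241 elements within 25 bp.

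Promoter regions carried other sequence features. CCGGAAG or its complement, the core of ETS sites, lay in 123 of the 286 promoter windows of equal-rank regions (43.0%, 37.4 to 48.8), in 119 of the 248 promoter windows of other regions (48.0%, 41.8 to 54.2), and in 6.33% of the 32851 RefSeq promoter windows of the same length. It lay in 61.8% (51.4 to 71.2) of the promoter windows higher in the Arcuate and in 40.3% (32.9 to 48.0) of those higher in the AVPV. GGGCGG, recognised by SP and KLF factors, lay in 37.8% of the equal-rank promoters, 38.7% of the other promoters and 31.1% of RefSeq promoters. ACTACANNTCCCA, part of the element of ZNF143 and THAP11, lay in 4.55% of the equal-rank promoters (2.68 to 7.62), 11.3% of the other promoters (7.93 to 15.8) and 1.28% of RefSeq promoters. Split by direction, it lay in 4.49% (1.76 to 11.0) of the promoters higher in the Arcuate, close to the equal-rank share. In those higher in the AVPV it lay in 15.1% (10.4 to 21.5). CCAAT, bound by NF-Y, lay in 14.3% of the equal-rank promoters, 21.8% of the other promoters and 29.4% of RefSeq promoters. The AGGTCA repeat unit, with or without a full element, lay in 26.9% of equal-rank, 36.3% of other and 33.9% of all 8072 regions. Among promoter windows only, the repeat unit lay in 9.09% of equal-rank and 9.27% of other regions. The further motifs lay in few windows of either set. AAGATGG of YY1 lay in 3.26% of all equal-rank and 5.35% of all other regions. TGANTCA of AP-1 lay in 4.89% and 7.02% of the same sets (2.10% and 2.42% of those at promoters). TGACGTCA of CREB lay in 0.815% and 0.669%, and the palindrome of NRF1 in 0.611% and 0.334%. At promoters AAGATGG lay in 2.45% of the equal-rank windows, 13.5% of those higher in the Arcuate and 2.52% of those higher in the AVPV. A match describes letters in a window and not binding by the factor.

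The 8-letter word GATTCGCC stood out at the top of the ranking. It was picked after a scan of the 83 windows with a mean percentile of 90 or more against RefSeq promoters, as the first of 131 words present in 5 or more of them, so its count is a description without a test. It lay in 9 of the 83 windows (10.8%, 5.81 to 19.3), in 11 of all 491 equal-rank regions, in 0 of the other 598 and in 24 of all 8072 regions. RefSeq promoters held it in 55 of 32851 windows (0.167%). Of the 10 highest ranked regions, 5 carried it, namely Sfswap, Brpf1, Fbxo8, Snrnp35 and Gm4925. The remaining 6 of the 11 were the promoters of Setd1a, Timm22, Ppp1r37, Zfat, Telo2 and Iqck, with mean percentiles of 98.6, 96.6, 96.6, 94.7, 88.5 and 7.03. Of the 55 RefSeq promoters with the word, 12 overlapped a region of any library (21.8%) and 8 an equal-rank region (14.5%), against 7.17% and 1.21% of all promoters. The scan chose the word by its contrast between the strongest equal-rank regions and RefSeq promoters. The contrast of these shares is thus partly set by that choice. The comparison with the other regions is limited by the rule, since only 1 of them reached a mean percentile of 90.

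**Figure D5:**
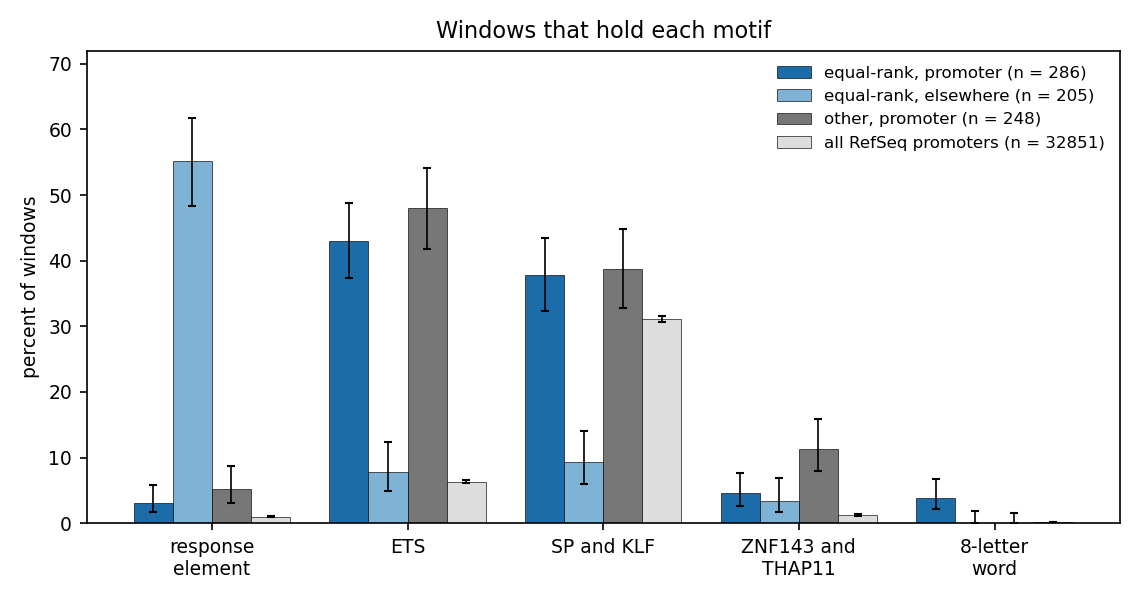
Percent of 201-bp windows (y axis) that held each motif on either strand, for equal-rank regions at promoters and elsewhere, other regions at promoters, and RefSeq promoters, with 95% Wilson intervals. The response element is found in 55.1% of equal-rank regions outside promoters and 3.15% at promoters, while the ETS core is found in 7.80% and 43.0%.

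Greb1 and Nrip1 were the known estrogen targets near equal-rank regions. Of 29 genes listed as targets in breast and uterus, 2 had one within 20 kb of a start (6.90%), against 618 of all 21000 protein-coding genes (2.94%), and another 8-library region was near 2 as well. The 2 genes were Greb1, a classical estrogen-induced gene, and Nrip1, which encodes the corepressor RIP140. The Greb1 region lay in an intron, 3.28 kb from a start (chr12:16760091-16761153), with fold enrichment of 31.3, 27.8, 25.3 and 22.2 in the Arcuate and 35.0, 26.6, 31.6 and 38.6 in the AVPV. The ranges overlapped, and the mean percentile was 95.5. At the promoter of Nrip1 (chr16:76373183-76373985) it was 5.64, 8.61, 6.84 and 9.38 against 5.75, 7.51, 7.51 and 5.96, at a mean percentile of 25.8. The Nrip1 window held an element with 1 mismatch centred 50 bp from the summit.

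Coregulator genes near equal-rank regions were 3 of 39 (7.69%), against 2.94% of all protein-coding genes, and another 8-library region was near 1 (2.56%). The 3 were Ddx17, Nrip1 and Phb2, the last a repressor of ERα activity. A region of mean percentile 34.7 lay 127 bp from the start of Phb2, with its summit at the promoter of Emg1. Of 42 nuclear receptor genes 1 was listed (2.38%, near the share of all genes), and 2 had another 8-library region. The gene was Esrra, an orphan receptor related to ERα. Its regions lay 11.7 and 19.8 kb away and had their summits at the promoters of other genes, Prdx5 and Gpr137. Of 41 hypothalamic peptide, receptor and marker genes 1 was listed (2.44%, also near that share), and 0 had another 8-library region. The gene was Gad2, which encodes an enzyme of GABA synthesis. Its promoter (chr2:22621541-22622635) held an element with 1 mismatch and gave 20.3, 18.1, 16.8 and 20.9 in the Arcuate and 18.5, 22.5, 27.8 and 25.0 in the AVPV, with overlap, at a mean percentile of 89.9. Among the promoter regions Gad2 belonged to the 9 with an element.

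Other lists were as follows. Of all protein-coding genes, 2.94% had an equal-rank region within 20 kb and 3.05% had another 8-library region. None of 30 activity-induced genes had an equal-rank region, and 3 had another 8-library region. At such shares, lists of 30 or 22 genes are too short to show a lack or an excess of equal-rank regions. The clock list gave 1 of 22, Ciart, 11.7 kb from a region at the promoter of Aph1a with a mean percentile of 9.00. Ion channel genes gave 3 of 164 (1.83%), Kcnk4, Trpm7 and Kcna7. Only the Trpm7 region, which had its summit 106 bp from the start and a mean percentile of 28.1, lay at the promoter of the channel gene itself.

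Lists of general cell functions had larger shares than protein-coding genes as a whole. Of 142 genes of cytosolic ribosomal proteins and the proteasome, 13 had an equal-rank region within 20 kb (9.15%) and 12 another 8-library region (8.45%), so the share was similar in both sets. The promoter of Rpl37, a large-subunit protein, gave 29.0, 28.0, 30.2 and 33.7 in the Arcuate and 17.2, 21.9, 31.1 and 26.0 in the AVPV, at a mean percentile of 94.3. Psmc2, a proteasome ATPase, had a mean percentile of 84.4. A region at 94.5 lay at the promoter of Vps52 and 206 bp from the start of Rps18. Membrane trafficking genes gave 12 of 229 (5.24%), among them Vps52, a subunit of a tethering complex, Vps13b (90.9), Sec13, a coat protein of vesicles leaving the endoplasmic reticulum (76.9), and Syt3, a calcium sensor (67.2). Another 8-library region was near 16 of the 229 (6.99%). The regions named here are the highest ranked of these lists. Others ran down to a mean percentile of 6.11 at Rplp2 and 8.62 at Rab3gap1.

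Chromosome X held 6 equal-rank regions and chromosome Y held 1, although all libraries came from females. The Y region (chrY:90761250-90761685) had a low mean percentile of 7.77. Of its 20-base words, 72.9% also occurred in the equal-rank region chrX:169986771-169987201, at 4.69, near the same gene name, G530011O06Rik. Alignment alone therefore cannot place reads from the shared stretches. Female mice carry no Y chromosome, so the Y region is a position given by alignment and is not read as occupancy on Y. The X-linked regions included the promoter of Eif2s3x (85.4), an intron of Pak3 (85.9) and an intron of Rai2 (42.2) with a perfect element.

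Peak shape was compared between nuclei with 1 value per library, since the rule did not use it directly. Width followed fold enrichment within each library, as given below, and the rule matched the nuclei on ranks of fold enrichment. A small width difference is therefore partly set by the rule. Median peak width over the equal-rank regions was 470.2 bp ± 18.8 (SD, n = 4) in the Arcuate and 464 bp ± 39.96 (n = 4) in the AVPV, a difference of 6.50 bp (exact permutation test, two-sided, p = 0.771, adjusted over 4 tests 0.771). Library medians ran from 447 to 487 bp and from 429 to 518 bp, and overlapped. The distance of a library's summit from the median summit of the other 7 libraries had a median of 22 bp ± 3.56 in the Arcuate and 20 bp ± 0.816 in the AVPV (exact permutation p = 0.486, adjusted 0.686). Arcuate library 4 had the largest value, 27 bp. The distance from the response element was 18.5 bp ± 3.34 and 20 bp ± 1.87 over the 122 regions that held one (exact permutation p = 0.514, adjusted 0.686). The summits of both nuclei lay a median of 16 bp apart, and more than 100 bp apart at 15 regions (3.05%).

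More than 1 peak in a region was found at a higher share in each Arcuate than in each AVPV library, a difference that did not pass the adjusted test. Of the equal-rank regions, 426 had a single peak in every library and 65 had 2 or more in some library. The share with 2 or more was 2.85, 3.46, 2.85 and 3.05% in Arcuate libraries 1 to 4 and 1.83, 2.24, 2.24 and 2.65% in AVPV libraries 1 to 4. The nuclei did not overlap, and the means of 3.05% ± 0.288 and 2.24% ± 0.333 differed by 0.815 points (exact permutation p = 0.0286, the smallest this design allows). After adjustment of the permutation p over the 4 tests the difference did not pass 0.05 (adjusted p = 0.114). A measure at the smallest p cannot go below this adjusted value unless other measures also have a low p. Failing to pass therefore does not show that the nuclei were alike. Without Arcuate replicate 2 the difference was 0.218 points and without AVPV replicate 1 it was 0.473 points. In the other 598 regions the share with 2 or more peaks did not run the same way. It was 0.836 to 1.67% in the Arcuate libraries and 1.34 to 2.68% in the AVPV libraries. Width followed strength within each library, with a Spearman's rho of 0.65 to 0.75 between fold enrichment and width over the 491 regions, given as a description.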

How the data were processed

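ERα ChIP-seq of pooled chromatin (antibody sc-543, 75-nt single-end reads) was analysed from the 8 deposited peak lists. Per the labels, the authors aligned reads to mm10 with Bowtie2 2.5.0 and called peaks with MACS2 2.2.7.1, separately per library. Tools named by the submitters' processing notes also include deepTools 3.5. The control and the cut-off used for calling are not given in the sources used here. The input samples had no peak list and were not used here. The deposited lists hold a fold enrichment ratio, the −log10 p-value and −log10 q-value of each peak, a display score (not used) and the summit. The authors' signal tracks were not analysed here.

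Peaks sharing at least 1 bp were merged across libraries, and the highest fold enrichment per library and region was ranked. Mean percentiles differing by less than 10 defined equal-rank regions. The summit of a region was the median of its 8 library summits. Annotation used 45756 curated RefSeq transcripts of GRCm38.p6, the assembly of mm10, whose chromosome lengths held every peak, and promoter sequences came from RefSeq on the same build. Motifs were sought in 201-bp windows, and the response element was allowed 2 mismatches in 12 bases. No 2 libraries shared more than 1 identical peak. The gene lists were matched by symbol, 1 listed symbol not being found. Prefix lists took protein-coding genes only. Python 3.11.15, numpy 2.4.6, scipy 1.17.1, pysam 0.24.0 and matplotlib 3.10.9 were used, and the scripts were tested on simulated data.

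Shares have 95% Wilson and differences 95% Newcombe intervals, for counting error only. Library values were compared by exact two-sided permutation tests (4 against 4, 70 assignments, smallest p 0.0286), with Benjamini-Hochberg adjustment over 4 tests. The percentiles, fold enrichment and q-values chose the regions and were not tested. The regions and the gene lists were chosen with earlier results of these data known, and the 8-letter word and the other motifs beside the response element after values were seen. Regions named in the text were the 10 highest ranked, the 5 of smallest range and the 3 nearest the limit on each side. Named too were up to 4 of highest rank per gene list, those near Greb1, and the 5 highest ranked with a perfect element. Regions on chromosome 18 (9 of 491) were counted but are not reported here by name. Alternatives covered the limit, the ranking measure, the reference for the percentile, the average, region width, each library left out, the replicate block, element mismatches and window, and the promoter definition.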

Additional observations from a re-analysis of the deposited data

Results flagged for a closer look

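Of 82 groups of 4 libraries examined (the peak shape measures and the fold enrichment of the named regions), 1 held a library far from the other 3, where chance gives about 1 in 20. At Sfswap, Arcuate library 4 had a fold enrichment of 76.1, and Arcuate libraries 1 to 3 lay between 63.9 and 65.5.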

How the results depend on the processing

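The number of equal-rank regions was 291 with a limit of 5 and ran from 473 to 498 with 1 library left out. Ranking by q-value gave 560 regions, 452 of them shared with the 491, and percentiles among all peaks of a list gave 609, 417 of them shared. The share at a promoter was 53.3% with a limit of 15, 50.9% by the centre of the region and 65.8% with the wider promoter (55.2 to 58.2% with 1 library left out), and its difference from the other regions was 10.6 points with a limit of 15. The share with a response element was 13.4% at 1 mismatch, 4.07% at none and 30.2% with percentiles among all peaks, and the difference from the other regions was then -6.62, -0.107 and -7.08 points (-17.2 to -12.6 with 1 library left out). Restricting both sets to mean percentiles of 10 to 90, an alternative chosen after seeing the data, gave differences of -11.99 points for the element and 13.4 points for promoters. None of the 4 peak shape differences passed 0.05 after adjustment under any alternative, and 2 changed sign. At these library numbers a measure could not pass on its own, so the failure to pass does not show that the nuclei were alike. The width difference was -3.75 bp with percentiles among all peaks and -7.50 to 20.8 bp with 1 library left out. The summit-to-element difference was 0.375 bp with a limit of 15, 0.500 bp with percentiles among all peaks and -3.50 to 0.583 bp with 1 library left out. The multiple-peak difference was 0.123 points with percentiles among all peaks, 0.383 with a limit of 15, 1.29 with a limit of 5, 0.536 by q-value and 0.218 to 0.964 with 1 library left out. The summit offset difference was 0.750 bp with a limit of 5, 1.25 bp by the median percentile and 0.583 to 3.56 bp with 1 library left out. The cause was not tested.

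The nuclei share replicate numbers 1 to 4, but nothing says that a number marks a common batch, and deviations of same-numbered libraries correlated at 0.09, -0.02, 0.03 and -0.32. With a replicate block (exact sign-flip test over 4 pairs, smallest p 0.125) the differences were 6.50 bp (width) and 0.815 points (multiple peaks). They were 2.00 bp for summit offset and -1.50 bp for the element. The sign-flip p was 0.750, 0.125, 0.500 and 0.625 in that order. The smallest p lies above the threshold for passing, so no difference could pass and the test cannot show whether a block matters. The p for multiple peaks was that smallest value. With 4 libraries a nucleus and unknown read depth, small differences could not be detected.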
